A study of Mus musculus with 6 samples.

Results

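The RNA levels of 47 genes of the Wnt signalling system were examined among the 24982 genes counted in sorted mouse skin keratinocytes. The rule that picked them used gene symbols: 19 Wnt ligands, 10 Frizzled receptors, 5 co-receptors or other Wnt receptors (Lrp5, Lrp6, Ror1, Ror2 and Ryk), 11 Dickkopf, secreted Frizzled-related, Wif1 and Kremen genes, and 2 genes needed for ligand secretion (Porcn and Wls). The count matrix listed all of them, 34 were counted deeply enough to be tested, 30 had a mean of at least 1 TPM, and 4 (Wnt8b, Dkk2, Dkk4 and Sfrp5) had no count in any library. TPM is a level per transcript length, scaled to a common total in each library, and is used here to compare genes. Differences between libraries are given on CPM, counts scaled by library size and TMM factors without regard to length.

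The data were 6 poly(A) RNA libraries from 3 mice, numbered 890, 892 and 899 in the sample titles. All mice carried an Lgr6-EGFP-Ires-CreERT2 allele and the reporter R26loxP-stop-loxP-tdTom, so tamoxifen (20 µg at postnatal day 42) turned on tdTomato in cells expressing the R-spondin receptor Lgr6, and their descendants kept the label. The denervated group (3 libraries) came from the left back, where dorsal nerves T3 to T12 had been dissected out, and the normal group (3 libraries) from the intact right back of the same mice, both taken 4 weeks after surgery. The protocols describe a sort on Tomato and CD49f (Itga6), while the series' design text also names GFP, so whether cells had to express Lgr6 when sorted is not settled. The protocols mention no sham surgery, so the effects of nerve loss, of the operation and of left against right cannot be told apart. The sources used here do not give the time from tamoxifen to surgery.

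Wnt proteins are lipid-modified secreted ligands that are acylated by Porcn and carried to the cell surface by Wls. On the receiving cell they bind a Frizzled receptor together with Lrp5 or Lrp6, which stabilises β-catenin and turns on TCF/LEF target genes, or act through Ror and Ryk receptors without β-catenin. Sfrp proteins and Wif1 bind the ligands, while Dkk1, Dkk2 and Dkk4 block Lrp5 and Lrp6 with help from Kremen receptors. In skin, Wnt signalling is known for its part in hair follicle growth and in the renewal of the basal epidermis.

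Library totals ran from 13801154 to 26167593 counts on the normal side and from 9610071 to 14021730 on the denervated side, so that 3 counts stood for 0.113 to 0.323 CPM. The denervated library of animal 890 was the shallowest. It lay lowest on the leading principal component of log2 CPM (36.5% of variance), at −37.6, with its normal library next at −9.73. This component also ordered the animals: normal and denervated libraries lay at 0.711 and 0.944 for animal 892 and at 24.5 and 21.1 for animal 899. Basal keratinocyte markers (Krt5, Krt14 and others) summed to 42379 to 43067 CPM in normal and 40971 to 46955 CPM in denervated libraries. Markers of other cells and follicle compartments were read in the paired edgeR test described below. There, 3 of 8 bulge and germ markers were called higher on the denervated side, beside 2.88% of all tested genes. They were Sox9 (adjusted p = 0.0442), Nfatc1 (0.00977) and Runx1 (0.0141). The bulge markers Cd34 (log2 fold change −0.31) and Krt15 (−0.12) went the other way without passing. Lhx2 (0.21), Lgr5 (0.44) and Tbx1 (0.51) were above 0, also without passing. The list's sum overlapped at 4814 to 6106 against 4684 to 5436 CPM, but most of it was Krt15 (4416 to 5900 CPM). In the same test Mbp and Pmp22 of the Schwann cell list were called higher (adjusted p = 0.0145 each). Scd3 of the sebaceous list was called lower (adjusted p = 0.0325), beside 0.577% of all tested genes. Dermal papilla markers summed to 18.4 to 19.5 against 15.5 to 16.3 CPM, most of it Rspo3 (11.1 to 17.8 CPM), with Corin, Sox18 and Prom1 at 0, and endothelial markers to 1.80 to 2.57 against 2.22 to 2.69 CPM, with Cdh5 and Emcn at 0. Fibroblast markers summed to 191 to 463 against 229 to 509 CPM, nearly all of it Postn, with Lum at 0. Schwann cell markers summed to 531 to 597 against 671 to 707 CPM, sebaceous markers to 42.8 to 48.5 against 29.5 to 35.8 CPM, and these sums, like that of the dermal papilla, did not overlap between the sides. The part of other cells in the values below was not tested.

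Wnt4, Wnt3, Wnt10a and Wnt7b carried most of the ligand RNA. Together they made up 82.1% to 84.9% of the summed TPM of all 19 Wnt ligands in each library. Wnt4 stood at 105, 108 and 105 TPM in the normal libraries of animals 890, 892 and 899 and at 87.9, 110 and 98.4 TPM in the denervated ones. Wnt3, a ligand of the β-catenin branch, stood at 104, 95.8 and 117 TPM against 87.6, 81.1 and 111 TPM. Wnt10a, a ligand whose loss is known to impair hair, teeth and sweat glands, stood at 86.2, 94.8 and 92.2 TPM against 87.0, 84.4 and 95.4 TPM. Wnt7b ranged from 64.0 to 88.4 TPM. Wnt7b was below Wnt4 and Wnt10a in 6 of 6 libraries, and Wnt10a below Wnt4 in 6 of 6. Wnt3 had no fixed place among them: it was below Wnt4 in 4 of 6 libraries and above Wnt10a in 5 of 6, and the ranges over libraries overlapped. No other ligand came near them.

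Wnt16 followed at 14.6 to 28.2 TPM. Below it came Wnt10b (7.36 to 15 TPM), Wnt3a (6.58 to 12.4 TPM), Wnt5a (7.63 to 13.3 TPM), Wnt6 (5.53 to 12.8 TPM) and Wnt11 (7.08 to 10.4 TPM), whose ranges all overlapped. Wnt5a and Wnt11 are best known for signalling without β-catenin, whereas Wnt3a and Wnt10b are ligands of the β-catenin branch. Wnt5b lay at 2.19 to 2.81 TPM. Wnt7a (mean 0.873 TPM), Wnt9a (0.571 TPM) and Wnt9b (0.283 TPM) were tested but lay below 1 TPM on average. Of the 5 ligands that were too low to test, Wnt2b had 18 counts over all 6 libraries, Wnt8a had 5, Wnt1 had 2, Wnt8b had 0, and Wnt2 was seen almost wholly in animal 892 (described further on).

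**Figure D1:**
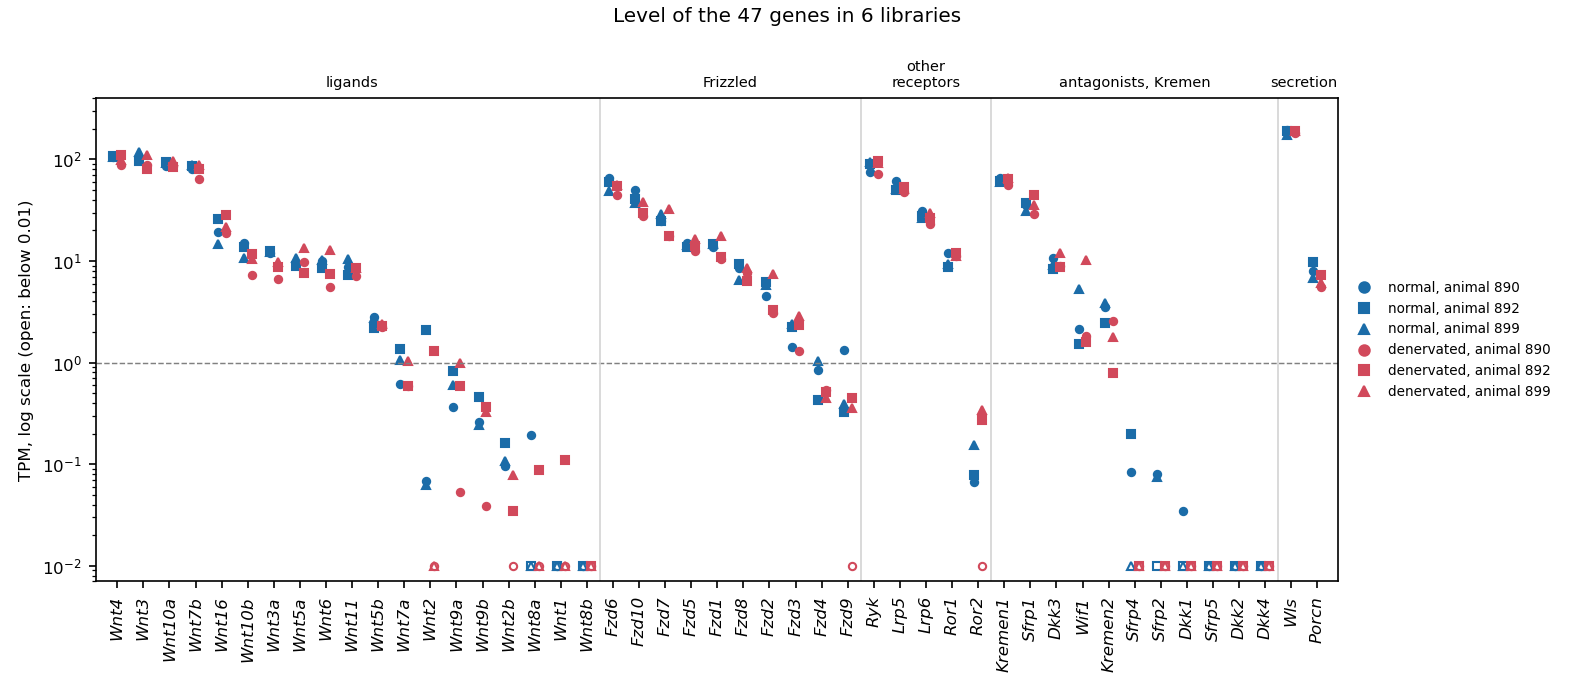
TPM of each of the 47 genes in each of the 6 libraries on a log axis, blue for normal and red for denervated, with a marker shape for each animal, genes ordered by mean within each role, a dashed line at 1 TPM, and open symbols at the axis floor for values below it. Wnt4, Wnt3, Wnt10a and Wnt7b lie far above the other ligands, Fzd6 leads the Frizzled genes, and Wls is the most abundant of the 47.

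Some of these ligands lie next to each other in the genome, and their levels differed widely within a pair. By GENCODE vM21 on mm10, 4 pairs of the 47 genes lay within 100 kb of each other with no annotated gene between them, and 3 of the 4 were divergent, with their 5′ ends facing. Wnt3a (chromosome 11, 59248033 to 59290752, minus strand) faced Wnt9a (59306928 to 59333552, plus strand) across 16.2 kb. Wnt10b (chromosome 15, 98770712 to 98778150, minus strand) faced Wnt1 (98789857 to 98793837, plus strand) across 11.7 kb. Wnt9b (chromosome 11, 103727364 to 103749821, minus strand) faced Wnt3 (103774150 to 103817957, plus strand) across 24.3 kb. The tandem pair was Wnt6 and Wnt10a on the plus strand of chromosome 1, 6.19 kb apart.

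In each pair and in each of the 6 libraries, the same partner was the higher. Wnt3a at 6.58 to 12.4 TPM stood beside Wnt9a at 0.0537 to 0.994 TPM. Wnt10b at 7.36 to 15 TPM stood beside Wnt1 at 0 to 0.11 TPM. Wnt3 at 81.1 to 117 TPM stood beside Wnt9b at 0.0385 to 0.462 TPM, and Wnt10a at 84.4 to 95.4 TPM beside Wnt6 at 5.53 to 12.8 TPM. These are descriptions of levels, with no test.

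**Figure D2:**
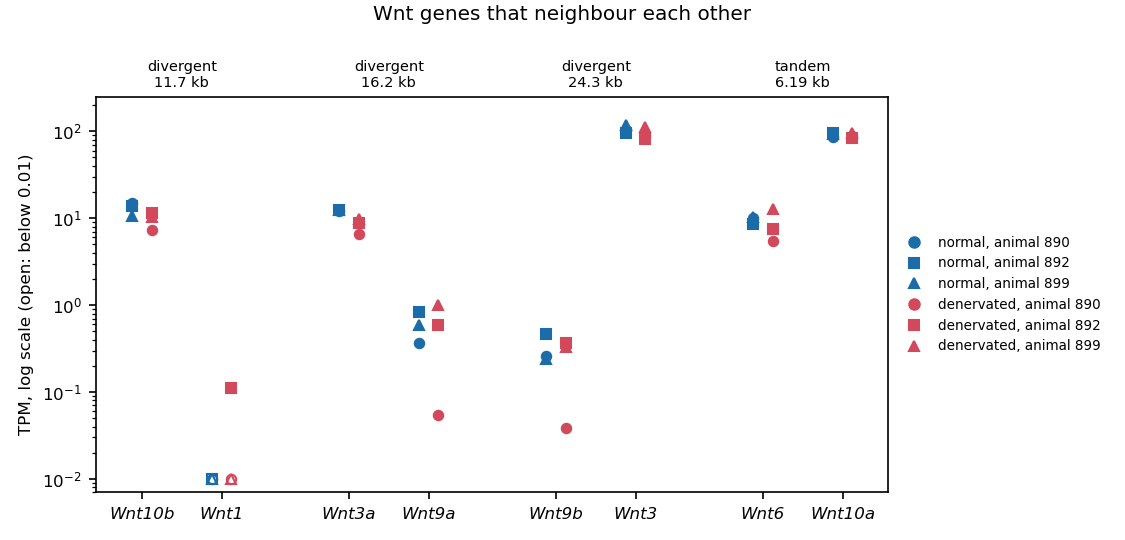
TPM of the 4 pairs of neighbouring Wnt genes in each of the 6 libraries on a log axis, blue for normal and red for denervated, a marker shape for each animal, with the orientation and the distance between the genes above each pair. In every pair the ranges of the partners do not overlap, from 0.0385 to 0.462 TPM for Wnt9b against 81.1 to 117 TPM for Wnt3.

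In the sequences just upstream of 2 of the 3 divergent pairs, the lower partner is not the one with fewer CG dinucleotides. Each line gives the 250 bases before the RefSeq transcript start (GRCm38.p6), 5′ to 3′ on the gene's own strand, with every CG in capitals; they are shown because Wnt3a passed the test between the sides and Wnt9a, Wnt10b and Wnt1 complete the pairs.
Wnt3a, chr11:59290752-59291001, minus strand: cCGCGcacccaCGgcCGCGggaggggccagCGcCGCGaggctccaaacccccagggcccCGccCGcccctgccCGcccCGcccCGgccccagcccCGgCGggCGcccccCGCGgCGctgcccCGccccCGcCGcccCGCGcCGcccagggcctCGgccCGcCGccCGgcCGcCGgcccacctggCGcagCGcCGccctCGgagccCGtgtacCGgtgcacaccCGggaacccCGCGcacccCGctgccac
Wnt9a, chr11:59306680-59306929, plus strand: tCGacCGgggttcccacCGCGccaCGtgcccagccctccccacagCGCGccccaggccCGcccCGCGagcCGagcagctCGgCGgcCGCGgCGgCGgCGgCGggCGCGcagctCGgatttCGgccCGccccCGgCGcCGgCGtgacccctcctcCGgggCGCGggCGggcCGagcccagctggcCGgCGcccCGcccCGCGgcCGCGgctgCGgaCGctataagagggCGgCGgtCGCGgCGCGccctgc
Wnt10b, chr15:98778151-98778400, minus strand: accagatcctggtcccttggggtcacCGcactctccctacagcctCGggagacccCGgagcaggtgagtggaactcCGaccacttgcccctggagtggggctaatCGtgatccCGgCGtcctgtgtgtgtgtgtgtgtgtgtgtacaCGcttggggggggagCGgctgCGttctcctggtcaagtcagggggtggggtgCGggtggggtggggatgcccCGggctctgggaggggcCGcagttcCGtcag
Wnt1, chr15:98789607-98789856, plus strand: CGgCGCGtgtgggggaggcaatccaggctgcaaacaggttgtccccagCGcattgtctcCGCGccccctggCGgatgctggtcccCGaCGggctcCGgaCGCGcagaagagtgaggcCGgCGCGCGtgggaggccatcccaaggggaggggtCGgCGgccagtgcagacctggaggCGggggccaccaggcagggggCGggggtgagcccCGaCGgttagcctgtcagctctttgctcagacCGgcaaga
Wnt3a held 41 CG and Wnt9a 48, while Wnt10b held 14 and Wnt1, with a mean of 0.0183 TPM, held 23. The windows of the remaining divergent pair, Wnt3 and Wnt9b, held 22 each and are not shown. The median over all 32851 RefSeq windows of this length was 6, with the 75th percentile at 16.0. Windows were found for 31 of the 47 genes. The 24 windows of tested genes had a median of 22 CG and the 10 windows of untested genes 18.0. The TCF/LEF core motif CTTTGA, searched on both strands, was in none of the 4 sequences, in 5 of the 34 windows (of Fzd1, Ror1, Wnt11, Wnt5b and Dkk1) and in 13.8% of all windows.

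Fzd6, Fzd10 and Fzd7 made up most of the Frizzled RNA, with 70.2% to 75.5% of the summed TPM of the 10 Frizzled genes. Fzd6, a receptor known for orienting hairs across the skin, stood at 65.6, 60.3 and 48.7 TPM in the normal libraries and at 44.5, 55.3 and 56.0 TPM in the denervated ones (animals 890, 892 and 899 in this order, here and below). Fzd10 stood at 50.3, 40.9 and 37.6 TPM against 27.7, 29.8 and 37.7 TPM. Fzd7, a receptor linked to stem cell maintenance in several epithelia, stood at 24.6, 25.0 and 29.2 TPM against 17.7, 17.8 and 32.7 TPM. Ranges over libraries overlapped, but Fzd6 was above Fzd10, and Fzd10 above Fzd7, in 6 of 6 libraries. Fzd5 (12.4 to 16.5 TPM) and Fzd1 (10.4 to 17.6 TPM) did not differ beyond their spread. Fzd8 averaged 7.80 TPM and Fzd2 5.07 TPM. Fzd3, a receptor of the planar polarity branch, lay at 1.31 to 2.85 TPM. Fzd4 averaged 0.634 TPM, and Fzd9 averaged 0.477 TPM and was too low to test.

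Among the other receptors, Ryk led with 74.6, 89.5 and 95.1 TPM in normal and 72.4, 97.3 and 91.6 TPM in denervated libraries. Lrp5 stood at 61.0, 50.3 and 51.4 TPM against 48.2, 54.0 and 51.2 TPM, and Lrp6 at 31.2, 27.6 and 26.2 TPM against 23.3, 26.6 and 29.8 TPM. Both Lrp genes encode the co-receptors that pass the signal to Axin, and in each library Lrp5 was above Lrp6. Ror1 stood at 12.1, 8.76 and 9.40 TPM against 11.3, 12.0 and 11.3 TPM. Ror2, the related Wnt5a receptor, averaged 0.154 TPM and was too low to test. Wls was the most abundant of the 47 genes in each library, at 196, 190 and 173 TPM against 180, 190 and 189 TPM. Porcn was much lower, at 7.91, 9.71 and 6.84 TPM against 5.56, 7.30 and 6.06 TPM.

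Only 5 of the 11 antagonist and Kremen genes picked by the rule could be tested, and those 5 also reached a mean of 1 TPM. Of 20 extracellular modulators outside the rule, 10 stayed below 1 CPM in every library. Others were well above it, such as Apcdd1 (114 to 140 CPM) and Sostdc1 (32.6 to 48.2 CPM). Kremen1, the Dickkopf receptor, led at 65.8, 61.1 and 59.5 TPM against 56.3, 64.3 and 65.4 TPM. Its partners Dkk1, Dkk2 and Dkk4 had 2, 0 and 0 counts over the 6 libraries. Sfrp1 stood at 35.5, 37.0 and 31.2 TPM against 28.8, 44.2 and 35.3 TPM. Dkk3, a Dickkopf relative that does not bind Lrp6 in the way Dkk1 does, stood at 10.6, 8.42 and 9.07 TPM against 8.94, 8.76 and 12.0 TPM. Sfrp2 had 3 counts, Sfrp4 6 and Sfrp5 0 over all libraries.

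Few of the genes that could be tested differed between the denervated and the normal side. Wnt3a fell and no member rose: 1 of 34 tested genes was called lower and 0 higher (edgeR's quasi-likelihood test with the animal as a block, Benjamini-Hochberg adjusted over all 12310 tested genes, called below 0.05). Over all tested genes, 0.577% were called lower and 2.88% higher. At an unadjusted p below 0.05, 6 members were lower (Wnt3a, Fzd10, Kremen2, Wnt10b, Wnt3 and Fzd7) and 0 higher, beside 7.86% and 10.4% of all tested genes, and DESeq2 with the block called 0 in either direction. DESeq2 gave no adjusted p for 17 of the 34 members, Wnt3a, Kremen2 and Wnt10b among them, so these could not be called there. In these bulk libraries, fewer cells of a type and less RNA per cell cannot be told apart.

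Wnt3a stood at 18.8, 20.4 and 19.9 CPM in the normal libraries and at 11, 14.7 and 15.1 CPM in the denervated ones. All 3 animals had less of it on the denervated side, and the sides did not overlap. The means were 19.7 ± 0.818 CPM (SD, n = 3) and 13.6 ± 2.26 CPM (SD, n = 3), a fall of 1.46-fold (log2 fold change −0.54 ± 0.14 SE, edgeR adjusted p = 0.0432). The counts behind it were 501, 437 and 278 normal and 102, 202 and 197 denervated. The fold stayed between −0.44 and −0.62 when an animal was left out, but the call was lost without animal 890 (edgeR adjusted p = 0.122) or 892 (0.139) and kept without animal 899 (0.0253). It was also lost without the block (log2 fold change −0.53, adjusted p = 0.199), with the deposited estimated counts (−0.54, adjusted p = 0.0530) and with limma on TPM (−0.52, adjusted p = 0.172), and in the authors' deposited table the log2 fold change was −0.54 with p = 0.00862 and no adjusted p.

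The other ligands kept mostly to the same side of 0 without passing the test. Of the 14 tested ligands, 12 had a log2 fold change below 0, with a median of −0.14, beside 54.7% of all tested genes below 0 and their median of −0.02. Wnt3 stood at 181, 176 and 211 CPM against 165, 151 and 192 CPM, lower in each animal though the sides overlapped (−0.16 ± 0.07 SE, edgeR adjusted p = 0.256). Wnt10b stood at 19.8, 17.9 and 13.6 CPM against 9.69, 15.1 and 12.8 CPM. It was lower in each animal, by −1.03 in animal 890 but only −0.25 and −0.09 in the others (log2), and the fitted value was −0.44 ± 0.17 SE (edgeR adjusted p = 0.191). Log2 fold changes of Wnt4 (−0.09 ± 0.08 SE), Wnt7b (−0.12 ± 0.08 SE) and Wnt10a (−0.02 ± 0.08 SE) were small, with adjusted p of 0.595, 0.423 and 0.917 in the same test. Wnt16 was higher in 3 of 3 animals, at 18.0, 25.4 and 13.5 CPM against 20.1, 27.8 and 19.6 CPM, with overlapping sides (0.26 ± 0.13 SE, edgeR adjusted p = 0.286). Summed over the 19 ligands, the level was 455, 467 and 476 TPM normal against 385, 434 and 474 TPM denervated.

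Frizzled genes leaned lower in animals 890 and 892 but not in 899. Of the 9 tested Frizzled genes, 8 had a fitted log2 fold change below 0 (median −0.16, from −0.56 to 0.09), and none passed the test. Taken animal by animal, 9 of 9 were below 0 in animal 890, 6 of 9 in animal 892 and 2 of 9 in animal 899, with medians of −0.37, −0.42 and 0.16. Over all tested genes, 51.9%, 51.3% and 52.4% were below 0 in these animals, with medians of −0.01 in each. Summed Frizzled levels were 186, 173 and 161 TPM normal against 125, 141 and 180 TPM denervated. The largest drop in sum was thus in animal 890, whose denervated library was the shallowest and lay lowest on the leading principal component. The part of that library in this was not tested. Without animal 890, 6 of 9 were below 0.

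Fzd10 came closest to the threshold among the receptors. It stood at 82.7, 70.8 and 63.6 CPM against 49.7, 52.3 and 61.5 CPM, lower in each animal, with the sides not overlapping but nearly touching through animal 899. The means were 72.4 ± 9.64 CPM (SD, n = 3) and 54.5 ± 6.22 CPM (SD, n = 3), and the log2 fold change was −0.40 ± 0.11 SE (edgeR adjusted p = 0.0634, 0.211 without the block and 0.000900 with no filter on low counts). It was −0.24 without animal 890 and −0.58 without animal 899. Fzd7 stood at 61.7, 66.6 and 75.1 CPM against 47.8, 47.9 and 81.7 CPM, lower in animals 890 and 892 and higher in 899 (−0.24 ± 0.11 SE, edgeR adjusted p = 0.262). Fzd6 likewise went −0.43, −0.08 and 0.13 on the log2 scale in the 3 animals, and its fitted value was −0.13 ± 0.10 SE (edgeR adjusted p = 0.527). Without animal 899, Fzd10, Fzd7 and Wnt10b passed the test together with Wnt3a.

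**Figure D3:**
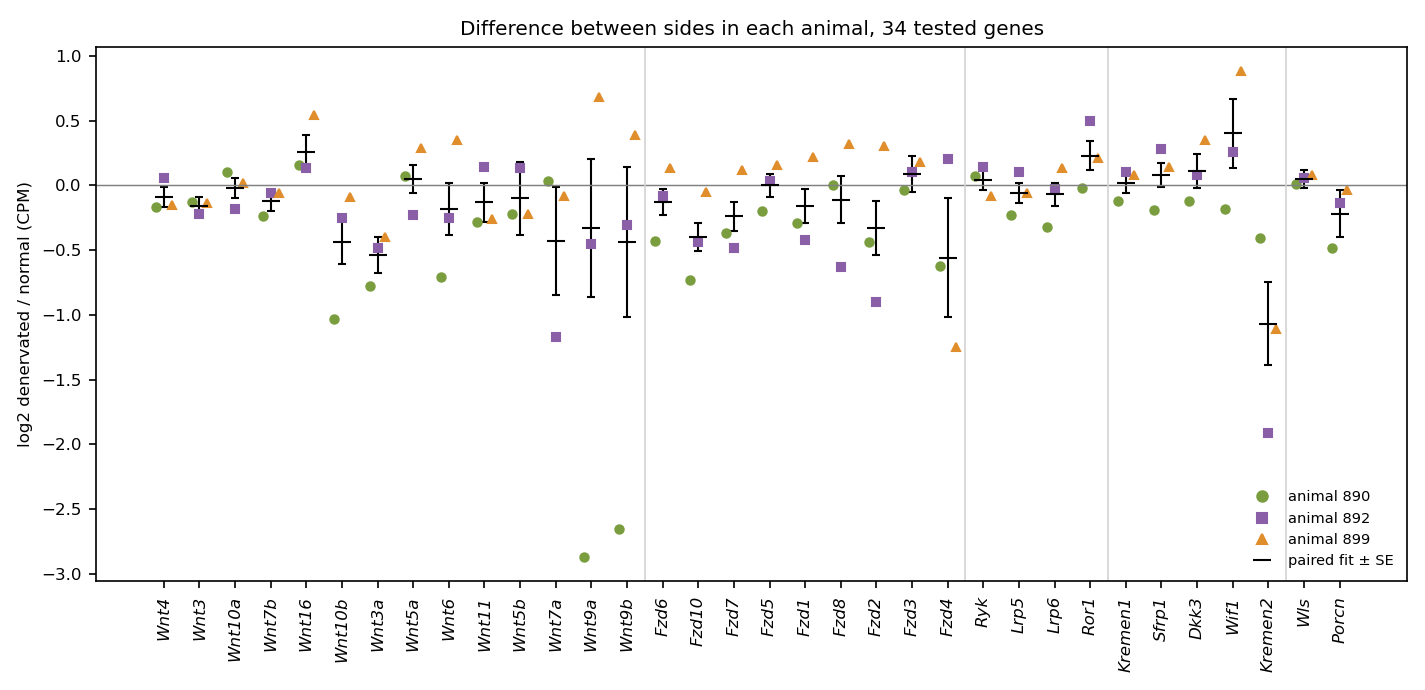
Log2 ratio of denervated to normal CPM in each of the 3 animals (coloured markers) for the 34 tested genes, ordered by role and mean level, with the fitted log2 fold change (black bar) and its standard error (whiskers). Wnt3a is below 0 in all 3 animals, whereas most Frizzled genes are below 0 in animals 890 and 892 and above it in animal 899.

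None of the tested co-receptors, other receptors, secretion genes and inhibitors passed the test. Their fitted values were small except for those of Ror1, Porcn, Wif1 and Kremen2. Log2 fold changes were −0.06 ± 0.08 SE for Lrp5, −0.07 ± 0.09 SE for Lrp6, 0.04 ± 0.08 SE for Ryk and 0.23 ± 0.11 SE for Ror1, with edgeR adjusted p of 0.730, 0.712, 0.811 and 0.306. Wls, the carrier that all secreted Wnts use, stood at 334, 331 and 305 CPM against 335, 344 and 322 CPM (0.05 ± 0.07 SE, edgeR adjusted p = 0.782). Porcn stood at 9.62, 10.7 and 7.15 CPM against 6.89, 9.67 and 6.97 CPM, lower in each animal with overlapping sides (−0.22 ± 0.18 SE, edgeR adjusted p = 0.548). Fitted values were 0.02 ± 0.08 SE for Kremen1, 0.08 ± 0.09 SE for Sfrp1 and 0.11 ± 0.13 SE for Dkk3, with edgeR adjusted p of 0.922, 0.703 and 0.725. Scaled by library totals instead, Wls (−0.01), Ryk (−0.02) and Kremen1 (−0.04) came out below 0, so no direction can be read for them.

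Kremen2, the lower of the 2 Dickkopf receptors here, had the largest fitted difference of the 34 genes. It stood at 4.43, 3.55 and 4.79 CPM against 3.34, 0.945 and 2.22 CPM, lower in each animal and with sides that did not overlap. The counts behind these values were low, at 118, 76 and 67 normal and 31, 13 and 29 denervated. The means of 4.26 ± 0.637 and 2.17 ± 1.20 CPM (SD, n = 3 each) gave a log2 fold change of −1.07 ± 0.32 SE (edgeR adjusted p = 0.0879). Its edgeR adjusted p was 0.00927 when low genes were kept in. Leaving out animal 890 gave −1.45 (edgeR adjusted p = 0.0105) and leaving out animal 892 gave −0.73. Its exons overlap those of 9530082P21Rik on the opposite strand, and the sources used here give no strand setting for the counting, so reads of the 2 genes may not be told apart.

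In all, 24 of the 34 tested members had log2 fold changes below 0, with a median of −0.12. The lean was strongest in animal 890, where 28 members were below 0, against 19 in animal 892 and 14 in animal 899, with medians of −0.23, −0.07 and 0.10. Without animal 890, 19 of 35 were below 0 and the median was −0.04. Lower values in 3 of 3 animals were found for 7 members, beside 21.4% of all tested genes, and higher values in 3 of 3 for 2 members (Wnt16 and Wls), beside 19.3%. Denervated libraries lay wholly below normal ones for 3 members (Wnt3a, Fzd10 and Kremen2) and wholly above for 0, beside 9.21% and 9.76% of all tested genes. The 7 and 3 lower members thus lie near the share of all genes, and read against it they say nothing particular of these 34.

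Some Wnt genes differed more between mice than between sides. In the same fit, 3 of 34 members were called between animals (Wif1, Wnt16 and Fzd3), beside 3.78% of all tested genes, and 10 had an unadjusted p below 0.05, beside 15.5%. Wif1, a secreted protein that binds Wnt ligands, stood at 6.43 CPM normal and 11.9 CPM denervated in animal 899, but at 2.55 and 2.26 CPM in animal 890 and 1.82 and 2.18 CPM in animal 892. Both sides of animal 899 were thus above all other libraries (between animals, edgeR adjusted p = 0.00211, and 0.870 without animal 899). Between sides its log2 fold change was 0.40 ± 0.27 SE (edgeR adjusted p = 0.465).

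Wnt16 was highest on both sides of animal 892, with the animals' other values at 13.5 to 20.1 CPM (between animals, edgeR adjusted p = 0.0398). That call was lost without animal 892 (adjusted p = 0.745), without animal 899 (0.0774) and with DESeq2 (0.123). Fzd3 was low on both sides of animal 890, at 9.51 and 9.26 CPM, against 15.5 to 18.7 CPM in the other 4 libraries (between animals, edgeR adjusted p = 0.0162, and 0.749 without animal 890). Its log2 fold change between sides was 0.09 ± 0.14 SE (edgeR adjusted p = 0.793). Markers outside the 47 stood apart in animal 899 as well: Postn, a matrix gene, was at 188 and 227 CPM there against 374 to 508 CPM in the other libraries, and the follicle gene Sox9 at 57.9 and 78.6 CPM against 40.0 to 51.3 CPM. Their part in the Wif1 difference was not tested.

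Wnt2, singled out after its values were seen, was present in 1 mouse. Animal 892 gave 51 normal and 21 denervated counts (2.38 and 1.53 CPM), while animals 890 and 899 gave 2 and 1 normal and 0 and 0 denervated counts. The low-count filter kept it out of the test. With no filter, the difference between animals had an edgeR adjusted p of 4.78e-06, and DESeq2 with the block gave 0.000730. Because the gene was picked for this same difference, these p-values add no support to it. Of the genes beside it, St7 stood at 16.9 and 16.5 CPM in animal 892 and at 15.7 to 21.2 CPM elsewhere. Cftr was near the floor, with 18 counts in the normal library of animal 892 and 5 in each of the other normal ones, and Asz1 had 0 counts in every library, so these 2 show little either way.

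**Figure D4:**
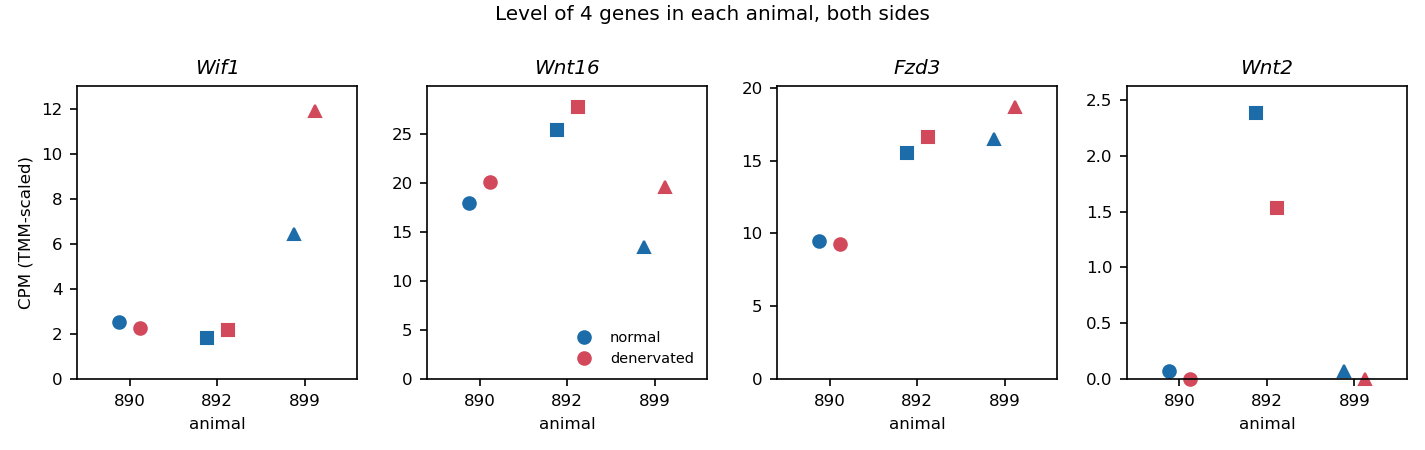
TMM-scaled CPM of Wif1, Wnt16, Fzd3 and Wnt2 in each animal, blue for the normal and red for the denervated side. For each gene both sides of 1 mouse stand apart from the other 4 libraries: animal 899 for Wif1, 892 for Wnt16 and Wnt2, and 890 (low) for Fzd3.

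Beyond these genes, 84 other genes of the pathway were listed in 5 overlapping groups, and 63 of them could be tested. Tle4 rose and Axin2 fell, and no other passed. That is 1 called higher and 1 called lower of 63, beside 2.88% and 0.577% of all tested genes. So few calls say nothing particular of the pathway. Of the 10 tested genes among 14 β-catenin feedback targets, 1 fell and 0 rose (median log2 fold change −0.10). Axin2, the feedback inhibitor read as a sign of β-catenin signalling, stood at 99.8, 81.5 and 71.6 CPM against 49.5, 52.7 and 58.3 CPM (−0.64 ± 0.11 SE, edgeR adjusted p = 0.0103, and 0.146 without the block; limma on TPM called neither gene). Its difference was largest in animal 890 and smallest in 899, at −1.01, −0.63 and −0.29 on the log2 scale. In the same animals Wnt3a went −0.78, −0.48 and −0.40 and Fzd10 −0.73, −0.44 and −0.05, whereas Kremen2 went −0.41, −1.91 and −1.11 and Wnt3 −0.13, −0.22 and −0.14. The median over the 34 tested members also rose in this order of animals, at −0.23, −0.07 and 0.10. A link between Axin2 and any of these genes was not tested.

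Of 28 tested genes among 30 of the intracellular machinery, 1 rose and 0 fell (median 0.02). Tle4, a Groucho-type corepressor that binds TCF/LEF factors, stood at 146, 136 and 173 CPM against 204, 180 and 205 CPM (0.38 ± 0.08 SE, edgeR adjusted p = 0.0188, 0.196 without the block and 0.0657 without animal 892). None of the 6 tested among 9 R-spondin and receptor genes passed (median −0.09). The smallest p values there were those of Rnf43, a ubiquitin ligase that removes Frizzled from the cell surface (−0.38 ± 0.11 SE, edgeR adjusted p = 0.0719), and Rspo3 (−0.30 ± 0.14 SE, edgeR adjusted p = 0.256). Lgr6, the gene that marks the sorted lineage, had a log2 fold change of −0.06 (edgeR adjusted p = 0.812).

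None of the 10 tested among 20 other extracellular modulators passed (median 0.08), with Tpbg (0.21 ± 0.08 SE, edgeR adjusted p = 0.148) and Trabd2b (0.56 ± 0.21 SE, edgeR adjusted p = 0.174) having the smallest p. None of the 14 tested among 18 planar polarity genes passed either (median −0.08). Daam1, a formin that links Dishevelled to the actin skeleton, had 0.26 ± 0.07 SE (edgeR adjusted p = 0.0720), and Intu, a planar polarity effector needed for cilia, −0.72 ± 0.22 SE (edgeR adjusted p = 0.0959).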

How the data were processed

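Raw whole-number counts per gene, deposited by the authors for 6 libraries, were the basis of all tests. Deposited TPM gave the levels between genes, and the authors' Salmon estimated counts (expected counts per the file headers, rounded to whole numbers) served as an alternative. The authors' deposited comparison table holds log2 fold changes, p-values and a mean normalised signal; the signal was not used. STAR 2.6.1a, Salmon 0.11.2 and mm10 come from the submitters' processing notes. For the count matrix, the sources used here give no counting tool, strand setting or annotation. These members share exon bases with a gene on the opposite strand: Wnt7b, Fzd6, Fzd5, Wnt5a, Wnt11, Kremen2 and Sfrp2.

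Counts were filtered with filterByExpr (minimum count 10, minimum total 15), scaled by TMM and fitted with edgeR 4.0.16 in R 4.3.3 (quasi-likelihood, side plus animal), over all 12310 tested genes, with Benjamini-Hochberg adjustment and a threshold of 0.05. Differences between animals used the same fit. Standard errors are log2 fold changes (absolute) divided by the root of F. P-values between sides rest on how much the side difference varied over 3 mice, moderated by edgeR towards the variation of other genes. Those between animals are judged against that same variation, and do not measure the spread between mice. The animal number in the titles pairs the libraries, since a mouse gave both sides, per the labels' protocols. Deviations from group means in log2 CPM correlated at 0.356, 0.361 and 0.443 within animals and between −0.278 and −0.0407 for libraries of different animals and sides, across genes. Libraries of 1 side correlated at −0.646 to −0.257, where deviations from a shared mean tend to be negative. The fitting script was tested on simulated data.

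The members, gene lists and tests were chosen with earlier results of these data known. Values in each library are given for members that passed, the 3 with the highest mean TPM and the 2 with the smallest p in each role, and members called between animals. From each pathway list came the genes that passed, or else the 2 with the smallest p. All 47 symbols matched GENCODE vM21. Alternatives were no block, DESeq2 1.42.0 size factors, library totals, other filters, DESeq2 with the block (adjusted p given as NA stayed NA), limma 3.58.1 on log2(TPM + 1), the estimated counts, and leaving out each animal.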

Additional observations from a re-analysis of the deposited data

How the results depend on the processing

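Depth limited the low genes: 13 of the 47 were not tested. Across 11 alternatives, 254 of 305 values of single genes stayed on their side of the threshold with their sign, 8 from DESeq2 had an adjusted p of NA, 19 lost and 12 gained a call, and 12 reversed. Without the replicate block (unpaired), 0 members, 0 pathway genes and 0 of all genes were called in either direction, although 4 members and 1537 of all genes had an unadjusted p below 0.05. Of all genes, 355 were higher and 71 lower; this became 172 and 118 with library totals, 692 and 295 with no filter, and 0 and 1 with limma. DESeq2 with the block called 41 lower and the estimated counts 46. With library totals the share of higher genes among those called went from 83.3% to 59.3%. Members called lower numbered 3 with no filter and 0 with DESeq2, limma or the estimated counts; DESeq2 gave Wnt3a an adjusted p of NA (unadjusted 0.00650). Pathway genes called higher and lower were 2 and 4 with no filter, 2 and 2 with DESeq2, 0 and 0 with limma, and library totals called 2 lower. Members called between animals were 9 with no filter and 0 with limma. Leaving out each animal gave ranges of 0 to 4 members called lower, 215 to 671 genes higher and 33 to 305 lower, 0 to 3 pathway genes higher and 1 to 3 lower, and 3 to 7 members between animals. Log2 fold changes that reversed were Wls −0.01, Ryk −0.02 and Kremen1 −0.04 with library totals and Kremen1 −0.01 with limma. Leaving out each animal moved across 0 those of Wnt10a (−0.08 to 0.08), Kremen1 (−0.01 to 0.09), Fzd6 (−0.25 to 0.02), Lrp5 (−0.13 to 0.02), Lrp6 (−0.17 to 0.05), Sfrp1 (−0.01 to 0.21) and Dkk3 (−0.02 to 0.21). The cause of these changes was not tested.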

Other observations

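Outside the 47 genes, 6 of the 63 tested pathway genes were called between animals (Axin1, Ctnnbip1, Tcf7l1, Gpc3, Igfbp4 and Prickle2; edgeR, 3.78% of all tested genes). Axin1, the scaffold of the β-catenin destruction complex, stood at 142 CPM on the normal and 171 CPM on the denervated side of animal 899, against 96.5 to 108 CPM in the other 4 libraries (edgeR adjusted p = 0.00148). Gpc3, a glypican that binds Wnt and Hedgehog ligands, was lowest on both sides of the same animal, at 4.08 and 2.83 CPM against 7.25 to 11.1 CPM (edgeR adjusted p = 0.00642). Prickle2, a planar polarity gene, was highest there at 61.8 and 64.0 CPM against 30.5 to 52.6 CPM (edgeR adjusted p = 0.00585). These genes were named after their values were seen.

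Wnt9a and Wnt9b, which lie beside Wnt3a and Wnt3, had 1 count each in the denervated library of animal 890, against 21 and 18 in its normal library. In the other 4 libraries Wnt9a had 16 to 36 counts and Wnt9b 9 to 27. Both ligands were below 0.1 TPM only in that library, which was also the shallowest, and neither passed the test between sides (edgeR adjusted p = 0.793 for Wnt9a and 0.736 for Wnt9b).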
